A study of Mus musculus with 6 samples.

Results

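Genes of steroid hormone handling and response, 10 in all, were followed in Renca tumors that had grown at either of 2 sites. Renca is a mouse renal carcinoma line. It was implanted in BALB/c mice in the outer cortex of the kidney or under the skin, and the tumors were frozen on day 12 and profiled whole on Mouse Gene 1.0 ST arrays, so that their RNA came from tumor and host cells together. The intrakidney group held 3 tumors and the subcutaneous group held 3, each from its own mouse of the same strain; the labels name no treatment, no age and no genetic change. The genes were chosen by name as steroid enzymes (Hsd11b1, Hsd11b2 and Akr1c18), receptors (Nr3c1 and Nr3c2) and genes that glucocorticoids induce (Fkbp5, Tsc22d3, Per1, Sgk1 and Dusp1). They were 10 of the 19938 genes measured. The rule also took, for each gene, its brightest transcript cluster by the mean of the 6 arrays, but each of the 10 had only 1 cluster, so this step changed nothing. Since the list was drawn up with earlier results of these arrays known, the calls of its members are no independent evidence.

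Glucocorticoids are adrenal hormones that bind the receptor encoded by Nr3c1, which then enters the nucleus and raises or lowers the transcription of many genes, inflammatory genes among the lowered. How much hormone a cell sees also depends on its own enzymes: the product of Hsd11b1 regenerates active corticosterone from an inert precursor, and that of Hsd11b2 carries out the opposite step. In the kidney Hsd11b2 is best known from the distal nephron, where it keeps glucocorticoids away from the mineralocorticoid receptor, the product of Nr3c2.

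Promoter windows from 250 bases before to 50 bases after an annotated transcript start were taken from RefSeq on the build GRCm38.p6. Among the windows searched, 16 belonged to 8 of the 10 genes. No window of Hsd11b2 or Nr3c1 was searched, so the motif matches given below leave both genes out. Their absence says nothing on whether RefSeq lists a start for them. Windows of 4 genes are shown: Hsd11b1 and Akr1c18 because they were the members past the threshold, Sgk1 because a window of it holds the full element of the glucocorticoid receptor, and Per1, a clock gene, because a window of it holds the E-box that clock factors bind. Hsd11b1 lies at chr1:193242311-193242610 on the minus strand, Akr1c18 at chr13:4150597-4150896 on the minus strand, Sgk1 at chr10:21993640-21993939 on the plus strand (the fifth of 6 windows of this gene) and Per1 at chr11:69098699-69098998 on the plus strand (the first of 2). All are written 5′ to 3′ along the gene. Capitals mark the CCAAT box in Hsd11b1, the GC box in Akr1c18, the palindromic glucocorticoid response element in Sgk1 and the E-box in Per1.
Hsd11b1: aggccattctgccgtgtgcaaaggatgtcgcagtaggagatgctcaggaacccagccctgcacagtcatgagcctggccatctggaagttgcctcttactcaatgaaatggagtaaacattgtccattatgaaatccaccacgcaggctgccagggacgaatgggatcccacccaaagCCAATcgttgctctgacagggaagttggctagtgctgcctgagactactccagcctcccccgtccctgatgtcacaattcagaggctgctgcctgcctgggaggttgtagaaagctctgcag
Akr1c18: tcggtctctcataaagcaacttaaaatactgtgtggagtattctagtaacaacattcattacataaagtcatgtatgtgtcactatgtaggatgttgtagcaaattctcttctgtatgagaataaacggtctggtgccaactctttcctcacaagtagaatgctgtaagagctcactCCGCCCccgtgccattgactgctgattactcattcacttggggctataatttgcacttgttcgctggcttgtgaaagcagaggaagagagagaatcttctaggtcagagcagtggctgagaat
Sgk1: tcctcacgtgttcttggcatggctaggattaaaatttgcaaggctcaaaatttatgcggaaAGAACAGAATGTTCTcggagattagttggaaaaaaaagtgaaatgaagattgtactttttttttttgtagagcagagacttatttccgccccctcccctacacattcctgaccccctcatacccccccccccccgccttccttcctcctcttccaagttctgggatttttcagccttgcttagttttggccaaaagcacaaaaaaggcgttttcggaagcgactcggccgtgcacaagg
Per1: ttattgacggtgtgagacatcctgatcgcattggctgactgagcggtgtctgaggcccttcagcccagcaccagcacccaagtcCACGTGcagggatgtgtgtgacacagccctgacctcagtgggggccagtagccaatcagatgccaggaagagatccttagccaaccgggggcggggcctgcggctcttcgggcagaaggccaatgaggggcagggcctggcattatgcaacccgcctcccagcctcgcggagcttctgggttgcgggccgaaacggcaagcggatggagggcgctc

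The response element searched for was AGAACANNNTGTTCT, the pair of receptor sites in mirror image. Its letters occurred in 3 of the 32851 promoter windows of the table (0.00913%), and among the members in Sgk1 alone, where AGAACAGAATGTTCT covered positions -189 to -175 from that start. The other genes with these letters were Acnat2 and Gm35041, and the measured one, Acnat2, differed by 0.13 on the log2 scale (limma, adjusted p = 0.911). A single arm of the element, AGAACA on either strand, was found in windows of Sgk1 and Tsc22d3, and in 19.0% of all windows. In Sgk1 the 2 arms of the palindrome are counted among these matches. The E-box CACGTG, which clock factors bind, was found in windows of Per1 (positions -166 to -161), Sgk1, Dusp1 and Fkbp5, and in 7.15% of all windows. Dusp1 also held the cyclic AMP response element TGACGTCA, found in 1.79% of all windows. The CCAAT box (letters CCAAT, 37.4% of all windows) lay at positions -72 to -68 of Hsd11b1, and the GC box (letters GGGCGG, 35.7%) lay on the opposite strand at positions -73 to -68 of Akr1c18. All motifs were searched on both strands, and a match describes letters only, not binding.

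The comparison of the sites asked how the place of growth was reflected in the steroid genes. Hsd11b1 rose in intrakidney tumors to 2.08 times its subcutaneous level, and Akr1c18, whose enzyme inactivates progesterone, fell by 1.26 on the log2 scale. The receptors Nr3c1 and Nr3c2 and the co-chaperone gene Fkbp5 had differences between -0.14 and 0.07. Of the other glucocorticoid-induced members, Sgk1, Tsc22d3 and Per1 had all 3 intrakidney arrays below all 3 subcutaneous arrays, without passing the threshold. All differences are intrakidney minus subcutaneous in log2 RMA values, tested over all genes with limma and Benjamini-Hochberg adjustment, with a threshold of 0.05. One member passed as higher, against 0.130% of all genes, and 1 as lower, against 0.100%. One member had its intrakidney arrays all above the subcutaneous arrays, against 8.41% of all genes, and 4 of 10 had them all below, against 6.53%. At an unadjusted p under 0.05, which is given below for lists without a call, 1 member lay higher and 3 lay lower, against 4.72% and 3.71% of all genes. Because the members were named with these results in view, nothing is read from those shares. The same shares are the background for the list counts below, and 48% of all genes lay higher in intrakidney tumors. Lists were also chosen with earlier results known, so nothing is read from their counts either.

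**Figure D1:**
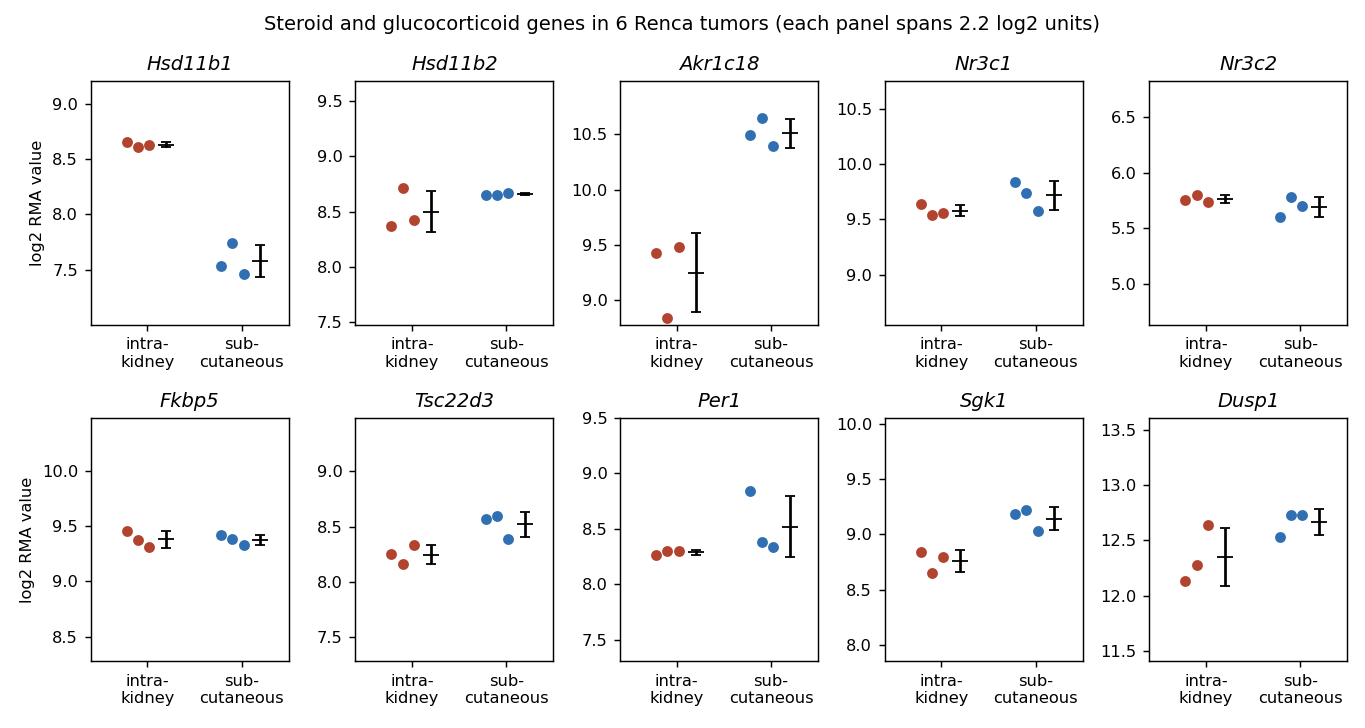
Log2 RMA values of the 10 genes in 3 intrakidney (red) and 3 subcutaneous (blue) Renca tumors, with points for arrays and black marks for the mean ± SD; every panel spans the same number of log2 units. Hsd11b1 sits between 8.61 and 8.65 in the intrakidney tumors and between 7.46 and 7.74 in the subcutaneous tumors, and Akr1c18 is separated the other way.

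Among the enzymes, Hsd11b1 (transcript cluster 10361234) measured 8.65, 8.61 and 8.63 in intrakidney tumors 1, 2 and 3 and 7.53, 7.74 and 7.46 in subcutaneous tumors 1, 2 and 3. The intrakidney values were nearly identical, the groups did not overlap, and the spread was larger under the skin (SD 0.0215 against 0.143, n = 3 per group). Its log2 difference was 1.05 ± 0.09 (SE; limma, adjusted p = 0.0111). The difference lay between 0.96 and 1.13 under all 17 other settings, while the adjusted p ran from 0.000918 to 0.0876. Of the 6 fits that left out a single array, those lacking subcutaneous tumor 1 or 3 lost the call (adjusted p = 0.0766 and 0.0508).

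Hsd11b2 (transcript cluster 10574780) did not move with Hsd11b1. It measured 8.37, 8.71 and 8.42 in the intrakidney tumors and 8.65, 8.65 and 8.67 in the subcutaneous tumors. Intrakidney tumor 2 lay above all subcutaneous values and the other two lay below them, so the groups overlapped. The log2 difference was -0.16 ± 0.10 (SE; limma, adjusted p = 0.757). The balance of both genes within an array, Hsd11b1 minus Hsd11b2, was 0.28, -0.10 and 0.21 in the intrakidney tumors and -1.12, -0.91 and -1.20 in the subcutaneous tumors. Values for different probes share no common scale, so the sign of this balance says nothing, but its shift between the groups does not depend on that. The shift was 1.21 on the log2 scale, from -1.08 ± 0.15 to 0.13 ± 0.20 (SD over 3 arrays each). Its exact permutation p was 0.1 (two-sided), below which this design cannot go. The shift follows mostly from Hsd11b1, already called above, and is no separate evidence. H6pd, whose product supplies the cofactor that Hsd11b1 needs to regenerate hormone, differed by -0.01 (limma, adjusted p = 0.993).

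Akr1c18 (transcript cluster 10407435) measured 9.43, 8.84 and 9.48 in the intrakidney tumors and 10.49, 10.65 and 10.39 in the subcutaneous tumors. All intrakidney values were below all subcutaneous ones, and intrakidney tumor 2 was the lowest by a clear step. The log2 difference was -1.26 ± 0.17, a 2.40-fold lower level (SE; limma, adjusted p = 0.0460). The 6 fits that left out a single array gave differences from -1.38 to -1.06, and of these only the fit lacking intrakidney tumor 2 kept the call (adjusted p = 0.0286). It was lost without intrakidney tumor 1 or 3 (adjusted p = 0.0719 and 0.0675) and without subcutaneous tumor 1, 2 or 3 (adjusted p = 0.234, 0.262 and 0.137).

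Akr1c18 belongs to a family of aldo-keto reductases whose genes stand side by side on chromosome 13 in the RefSeq annotation. None of the 8 other measured members of that cluster passed, at an adjusted or an unadjusted p of 0.05, with limma. Its measured neighbours on either side, Akr1c14 and Akr1c13, differed by -0.01 and -0.06, and the whole range was -0.08 (Akr1c12) to 0.56 (Akr1c6). Akr1c6 owed its value to intrakidney tumor 3, with 5.02, 4.94 and 6.50 there against 4.84 to 5.01 under the skin. Genes of this family are alike in sequence, and whether probes separate them fully was not tested.

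The wider list of enzymes that make or break down steroids held 35 genes, of which 28 were measured. Hsd11b1 was the only one past the threshold as higher and Akr1c18 the only one as lower. Of the 28 genes 13 lay higher and 15 lower, and the median log2 difference was -0.01, like that of all genes (-0.01). The steroid enzymes Cyp11a1 and Cyp21a1 were not in this list but among the adrenal markers described below, and both had a smaller p than the genes named next. Outside the members, the smallest p of this list belonged to Hsd17b7, an enzyme of cholesterol and estradiol synthesis. It measured 10.86, 10.44 and 10.45 in the intrakidney and 11.10, 11.12 and 10.97 in the subcutaneous tumors (difference -0.48, limma, adjusted p = 0.303). Cyp7b1, a hydroxylase of oxysterols and steroids, measured 6.46, 6.20 and 7.04 against 5.89, 5.93 and 5.77 (difference 0.70, adjusted p = 0.354). Hsd17b11 differed by -0.22 (adjusted p = 0.486). In each of these 3 genes the groups did not overlap, but none passed.

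Because the adrenal gland lies beside the kidney, markers of its steroid-making cortex were looked up. Of 9 measured markers 4 lay higher and 5 lower in intrakidney tumors, and their array means were 5.88 to 6.14 against 6.03 to 6.21 under the skin. None was called by limma, and 0 higher and 2 lower ones had an unadjusted p under 0.05; 6 of the 9 lay below the 40th percentile of mean values. Cyp11a1, which makes the first cut in cholesterol on the way to steroids, measured 5.45, 5.81 and 5.76 in the intrakidney tumors and 6.49, 6.42 and 6.37 in the subcutaneous tumors, a difference of -0.76 ± 0.11 between dim values that missed the threshold (SE; limma, adjusted p = 0.0533). Cyp21a1, which acts later in the same route, differed by -0.36 (adjusted p = 0.252) with groups that did not overlap either. Star, which carries cholesterol into mitochondria, differed by -0.01, and the corticotropin receptor gene Mc2r by 0.27 (adjusted p = 0.733).

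The receptors varied little. Nr3c1 (transcript cluster 10458569), the glucocorticoid receptor, measured 9.64, 9.54 and 9.56 in the intrakidney tumors and 9.84, 9.74 and 9.58 in the subcutaneous tumors. Subcutaneous tumor 3 fell within the intrakidney range, and the difference was -0.14 ± 0.09 (SE; limma, adjusted p = 0.752). Nr3c2 (transcript cluster 10572949), the mineralocorticoid receptor, measured 5.75, 5.80 and 5.74 against 5.60, 5.78 and 5.70 (difference 0.07, adjusted p = 0.889). It was the only member below the 40th percentile of mean values, where RMA compresses differences. Among the 6 other measured steroid receptors, the progesterone receptor Pgr differed by 0.15 (adjusted p = 0.622), and the estrogen receptors Esr2 and Esr1 by 0.14 and -0.08 (adjusted p = 0.695 and 0.831). The whole list of 8 receptors lay between -0.14 and 0.15, and none passed even at an unadjusted p of 0.05.

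The receptor protein is held ready for hormone by the Hsp90 machinery, and Fkbp5 encodes a member of that machinery which lowers hormone binding and is itself raised by glucocorticoids. Fkbp5 (transcript cluster 10449452) measured 9.46, 9.37 and 9.31 in the intrakidney tumors and 9.42, 9.38 and 9.33 in the subcutaneous tumors. The groups lay on top of each other, with a difference of 0.001 ± 0.073 (SE; limma, adjusted p = 0.999), whose sign turned with the setting. Of 21 measured chaperones and coregulators, Fkbp5 included, 16 lay higher and 5 lower. In 6 all intrakidney arrays lay above all subcutaneous arrays and in 2 all below, against 8.41% and 6.53% of all genes. None was called, while 3 higher and 0 lower had an unadjusted p under 0.05, against 4.72% and 3.71% of all genes. Ppid, a cyclophilin, differed by 0.25 (adjusted p = 0.501), Stip1, which passes clients from Hsp70 to Hsp90, by 0.22 (adjusted p = 0.539), and Fkbp4, which favours receptor transport to the nucleus, by 0.19 (adjusted p = 0.559). The median of the list was 0.04. It was 0.11 without intrakidney tumors 2 and 3, the arrays with the highest proximal tubule marker means.

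**Figure D2:**
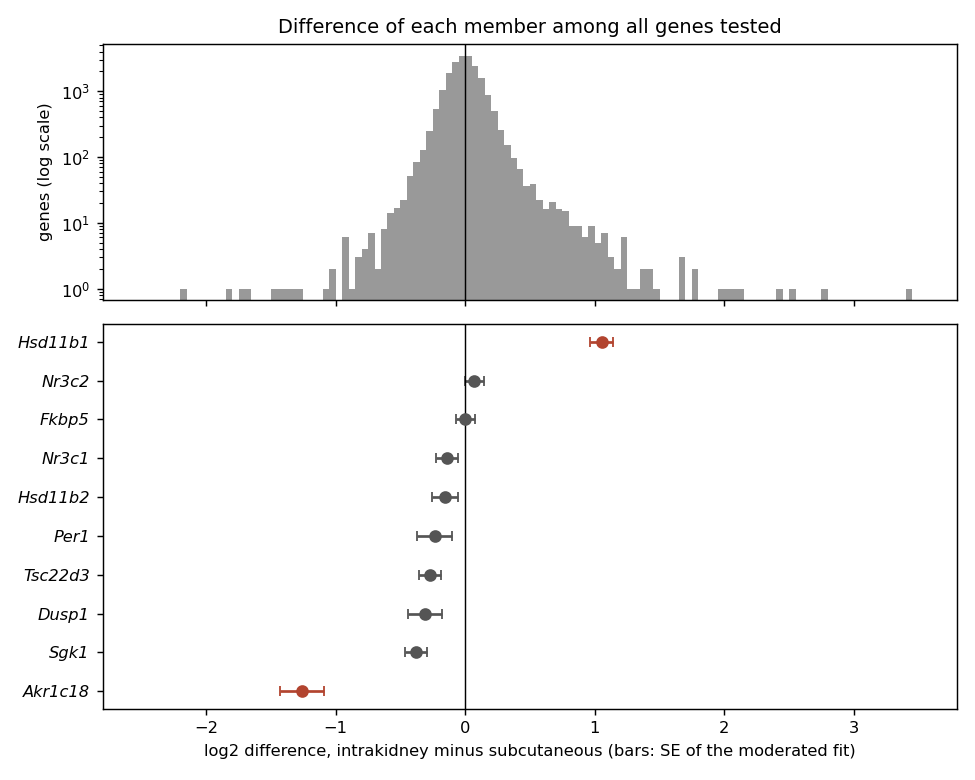
The upper panel is a histogram of the log2 difference (intrakidney minus subcutaneous) of 19938 genes with a logarithmic count axis, and the lower panel gives the 10 members with the SE of the moderated fit. Red members passed the threshold (Hsd11b1 at 1.05 and Akr1c18 at -1.26), and the grey ones lie between -0.38 (Sgk1) and 0.07 (Nr3c2).

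Sgk1 (transcript cluster 10362073), a kinase that keeps sodium channels at the cell surface, had the largest difference among the induced members. It measured 8.84, 8.65 and 8.80 in the intrakidney tumors and 9.18, 9.22 and 9.03 in the subcutaneous tumors. All intrakidney values were lower, and the spread was alike in both groups. The difference was -0.38 ± 0.09 (SE; limma, adjusted p = 0.227). Of the 17 other settings only array weights brought it past the threshold (adjusted p = 0.0242), and the adjusted p reached 0.827 without subcutaneous tumor 2. The palindrome shown above lies in a window of this gene, and the arrays do not tell which of its 6 starts was used.

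Tsc22d3 (transcript cluster 10606989), which encodes the leucine zipper protein that mediates much of the anti-inflammatory action of glucocorticoids, measured 8.25, 8.16 and 8.33 in the intrakidney tumors. The subcutaneous tumors gave 8.57, 8.60 and 8.39. The lowest subcutaneous value was just above the highest intrakidney value, and the difference was -0.27 ± 0.09 (SE; limma, adjusted p = 0.423). It ranged from -0.34 to -0.23 over the other settings, none of which brought it past the threshold.

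Per1 (transcript cluster 10377439), a repressor of the circadian clock that glucocorticoids also induce, measured 8.26, 8.30 and 8.30 in the intrakidney tumors and 8.84, 8.38 and 8.34 in the subcutaneous tumors. Subcutaneous tumor 1 stood apart from all others. The difference was -0.23 ± 0.13 (SE; limma, adjusted p = 0.717), and without subcutaneous tumor 1 it shrank to -0.07.

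Dusp1 (transcript cluster 10449284), a phosphatase that switches off stress kinases, measured 12.13, 12.28 and 12.64 in the intrakidney tumors and 12.53, 12.73 and 12.73 in the subcutaneous tumors. Intrakidney tumor 3 reached the subcutaneous range, and the groups overlapped. The difference was -0.31 ± 0.13 (SE; limma, adjusted p = 0.594). It was -0.20 without intrakidney tumor 1 and -0.56 in a fit that included the mean of the proximal tubule markers.

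Of the 35 genes that glucocorticoids are known to induce, none was called. Of these 21 lay higher and 14 lower in intrakidney tumors, and the median log2 difference was 0.03. An unadjusted p under 0.05 was reached by 7 higher and 4 lower genes, against 4.72% and 3.71% of all genes. Without subcutaneous tumor 3 the median was -0.02. Set apart from the 5 members, the other 30 genes lay higher in 20 and lower in 10 cases with a median of 0.08. Of the 30, 8 had all intrakidney arrays above and 2 all below the subcutaneous arrays, against 8.41% and 6.53% of all genes. The mean of these 30 genes was 9.14, 9.16 and 9.45 in the intrakidney arrays, against 9.08 to 9.13 under the skin. Intrakidney tumor 3 was the highest, and the groups were apart only narrowly (9.14 against 9.13). Over all 35 genes the means were 9.18, 9.19 and 9.45 against 9.18, 9.21 and 9.15, and the groups overlapped. Sgk1, Tsc22d3, Per1 and Dusp1 lay on the lower side of the list, together with Rgs2 and Lpin1. The genes with the smallest p lay on the upper side. Cd163, a scavenger receptor of macrophages, measured 7.80, 7.59 and 8.28 in the intrakidney and 6.79, 6.89 and 6.87 in the subcutaneous tumors (difference 1.04 ± 0.16, SE; limma, adjusted p = 0.0744). Cebpd, a transcription factor of the acute phase, measured 8.30, 8.14 and 8.64 against 7.64, 7.71 and 7.76 (difference 0.66, adjusted p = 0.143). Lcn2, an iron-scavenging protein of neutrophils and injured tubules, measured 12.10, 12.00 and 12.96 against 11.25, 11.11 and 11.02 (difference 1.22, adjusted p = 0.147). In all 3 the groups did not overlap, and intrakidney tumor 3 was the highest. Rgs2 and Lpin1, chosen here after their values were seen, both differed by -0.48 (adjusted p = 0.404 and 0.262).

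Inflammatory genes that glucocorticoids are known to lower lay higher in 13 and lower in 9 of 22 cases. The median log2 difference was 0.27. In 9 genes all intrakidney arrays lay above all subcutaneous arrays and in 2 all below, against 8.41% and 6.53% of all genes. None was called, while 8 higher and 2 lower had an unadjusted p under 0.05, against 4.72% and 3.71% of all genes. Csf2, a growth factor of granulocytes and macrophages, measured 7.55, 7.49 and 7.74 in the intrakidney and 6.64, 6.84 and 7.02 in the subcutaneous tumors (difference 0.76 ± 0.11, SE; limma, adjusted p = 0.0724). The monocyte chemokine gene Ccl2 differed by 0.72 (adjusted p = 0.149) and the adhesion molecule gene Icam1 by 0.41 (adjusted p = 0.170). The largest difference of the list, chosen here after its values were seen, was that of the collagenase gene Mmp13, which measured 8.95, 8.88 and 10.08 against 10.38, 10.39 and 10.24 (-1.03; limma, adjusted p = 0.365). This median dropped to 0.11 when intrakidney tumor 3 was left out and to 0.05 when the proximal tubule mean was included in the fit.

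**Figure D3:**
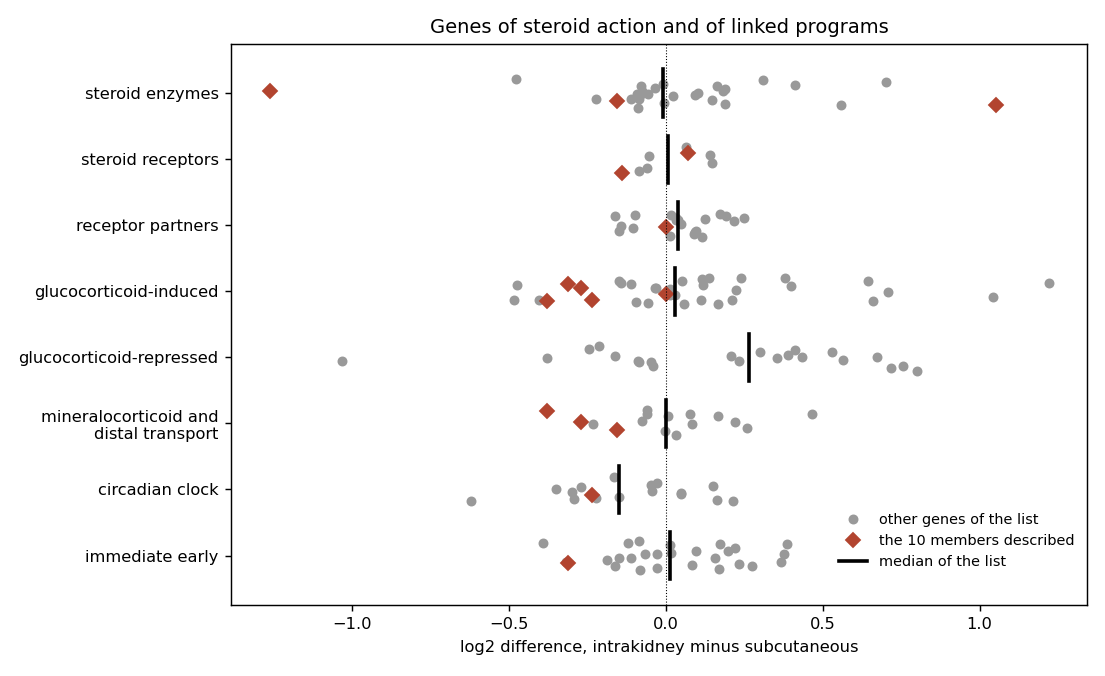
Each point is a gene, placed by its log2 difference (intrakidney minus subcutaneous), in 8 lists tied to steroid action; red diamonds are the 10 members, grey points the other genes and black bars the list medians, with small random vertical offsets. The induced members other than Fkbp5 sit left of 0 within a list whose median is 0.03, and the median of the repressed inflammatory genes is 0.27.

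The mineralocorticoid receptor acts mainly on salt transport in the distal nephron. Of 16 measured genes of that program, among them Sgk1, Tsc22d3 and Hsd11b2, 8 lay higher and 8 lower, and the median was 0.002. None was called, while 2 higher and 2 lower had an unadjusted p under 0.05. The subunits of the epithelial sodium channel Scnn1a, Scnn1b and Scnn1g, chosen here after their values were seen, differed by 0.08, 0.03 and 0.22. The nearest to the threshold apart from the members were the tight junction gene Cldn4 (difference 0.26, adjusted p = 0.453), the sodium pump subunit gene Atp1b1 (0.17, adjusted p = 0.564) and Fxyd4 (-0.23, adjusted p = 0.643).

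Per1 was also set among 17 measured genes of the circadian clock, of which 5 lay higher and 12 lower in intrakidney tumors, with a median log2 difference of -0.15. None was called, while 1 higher and 6 lower had an unadjusted p under 0.05, against 4.72% and 3.71% of all genes. The intrakidney arrays lay all below the subcutaneous arrays in 7 genes (Per1, Per3, Nr1d1, Nr1d2, Dbp, Tef and Rora). They lay all above them in 2 (Per2 and Cry1). The shares of all genes were 6.53% all below and 8.41% all above. Nr1d1, a nuclear receptor that represses the clock's activators, measured 9.03, 8.79 and 9.40 in the intrakidney and 9.85, 9.76 and 9.47 in the subcutaneous tumors (difference -0.62 ± 0.17, SE; limma, adjusted p = 0.331). Its relative Nr1d2 differed by -0.29 (adjusted p = 0.421) and Per3 by -0.27 (adjusted p = 0.434). Subcutaneous tumor 3 was the closest to the intrakidney tumors in Per1, Per3, Nr1d1, Nr1d2, Dbp, Tef and Rora. Leaving out subcutaneous tumor 1 or 2 brought the median to -0.08 in either case, and leaving out subcutaneous tumor 3 brought it to -0.21. The labels give no hour of collection.

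**Figure D4:**
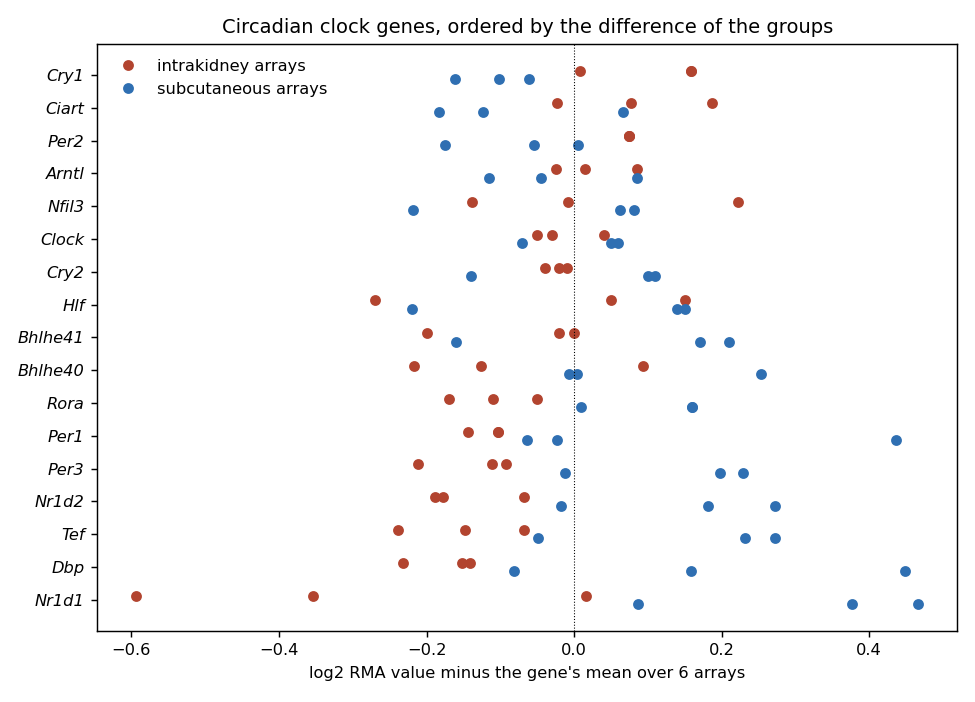
Log2 RMA values of 17 clock genes, each minus its mean over 6 arrays, for intrakidney (red) and subcutaneous (blue) tumors, ordered by the difference of the groups. Per1 and 6 further genes near the bottom have all red points left of all blue points, and Cry1 and Per2 near the top show the reverse.

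Dusp1 is at the same time an immediate early gene, one that responds within minutes to growth factors and to handling of tissue. Of 27 such genes 14 lay higher and 13 lower, and the median was 0.01. None was called, while 5 higher and 1 lower had an unadjusted p under 0.05. Dusp6, a phosphatase specific for the kinase ERK, differed by 0.37 (limma, adjusted p = 0.143), Ier2 by 0.38 (adjusted p = 0.248) and the AP-1 subunit gene Junb by 0.28 (adjusted p = 0.285), each with intrakidney values above all subcutaneous values. Fos, chosen here after its values were seen, differed by -0.32 (adjusted p = 0.694), close to Dusp1. Leaving out intrakidney tumor 3 brought the median to -0.05.

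The genes whose pattern over the 6 arrays was most like that of Hsd11b1 were Wfdc17, Lrg1, Esm1, C5ar1 and F13a1, by the root mean square difference of centred log2 values among 18614 other genes. That difference was 0.108 for Wfdc17 and 0.160 for F13a1. For Akr1c18 they were Aspn, Lum, C1qtnf3, Lrrc15 and Mamdc2, from 0.112 (Aspn) to 0.244 (Mamdc2). Aspn differed by -1.47 between the sites and Lum, which missed the threshold, by -1.07 (limma, adjusted p = 0.0336 and 0.204). Such differences follow from choosing genes for their likeness to a called gene and are no separate evidence.

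Cell type markers moved beside the 2 called members, and in whole tumors fewer cells of a type and less RNA per cell cannot be told apart. Hsd11b1 is known from adipocytes, macrophages and fibroblasts as well as liver. All 9 measured adipocyte markers lay higher in intrakidney tumors (array means 7.40 to 7.56 against 6.51 to 6.67), and Car3, Fabp4 and Cidec rose past the threshold by 3.41, 2.08 and 0.66. Of 14 macrophage markers 11 lay higher (10.02 to 10.22 against 9.77 to 9.82), with Vsig4 and Folr2 past the threshold at 1.37 and 0.58. Vsig4 was dim, below the 40th percentile of mean values. Of 11 endothelial markers 8 lay higher (8.34 to 8.39 against 8.08 to 8.23), and Emcn passed at 0.72. Markers of fibroblasts, also named above, went the other way, with 4 higher and 11 lower of 15 (8.37 to 8.95 against 8.96 to 9.07). Leptin (Lep), a defining product of adipocytes, differed by 0.03, and the macrophage genes Csf1r and Adgre1 by -0.14 and -0.05 (these 3 were chosen after their values were seen). The part of these cells in the level of Hsd11b1 was not tested.

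Beside Akr1c18, 11 of 15 fibroblast markers lay lower in intrakidney tumors (array means 8.37 to 8.95 against 8.96 to 9.07). Postn, Col6a1 and Col6a2 fell past the threshold by 1.66, 0.84 and 0.60. Intrakidney tumors 1, 2 and 3 had fibroblast means of 8.52, 8.37 and 8.95, beside Akr1c18 values of 9.43, 8.84 and 9.48. Both were lowest in tumor 2 and highest in tumor 3. The fibroblast mean of tumor 3 lay just below the subcutaneous range. Its Akr1c18 value of 9.48 lay below the lowest subcutaneous value of 10.39. All 11 T cell markers lay lower (6.68 to 6.95 against 7.03 to 7.19), none of them called and 4 of them with an unadjusted p under 0.05, with Cd3d at -0.49 (limma, adjusted p = 0.0797). The part of these cells in the level of Akr1c18 was not tested.

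Kidney markers differed among the intrakidney tumors, and in a renal carcinoma line the arrays do not tell host kidney from tumor cells. Proximal tubule markers averaged 6.56, 6.98 and 7.61 in intrakidney tumors 1, 2 and 3, against 6.48 to 6.64 under the skin. Of the 16 measured, 15 lay higher and 1 lower, none was called, 3 higher and 1 lower had an unadjusted p under 0.05, and 9 lay below the 40th percentile of mean values. The smallest p belonged to the lower gene, the water channel gene Aqp1, which measured 8.60, 7.87 and 7.94 against 9.16, 9.07 and 9.29 (difference -1.04; limma, adjusted p = 0.114). Next by p came 2 of the higher genes. Cyp2e1 measured 8.36, 7.41 and 10.02 against 6.04, 5.87 and 6.24 (difference 2.55; limma, adjusted p = 0.209). Pck1 differed by 0.64 (adjusted p = 0.436). Markers of the distal tubule and collecting duct, the home of Hsd11b2, averaged 6.19, 6.58 and 6.80 against 6.31 to 6.52, with 6 of 13 higher, 7 lower and none past an unadjusted p of 0.05. Without intrakidney tumors 2 and 3 the difference of Hsd11b1 was 1.07 (limma, adjusted p = 0.0653, the lone intrakidney tumor being assumed to vary like the others), while that of Akr1c18 was -1.09 (adjusted p = 0.0602). When the proximal tubule mean was included in the fit, the differences were 1.06 and -1.32 (adjusted p = 0.0713 and 0.207). Neither fit can tell the part of kidney tissue in these genes. The first keeps a single intrakidney tumor, and the second takes its tubule mean from the same 6 arrays. That part was not tested. Skeletal muscle and keratinocyte markers, which tissue around a subcutaneous tumor could add, gave no call. Muscle means were 6.61 to 6.83 at the kidney against 6.74 to 6.96, and keratinocyte means 6.10 to 6.35 against 6.22 to 6.45, with 1 lower gene of each list at an unadjusted p under 0.05.

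**Figure D5:**
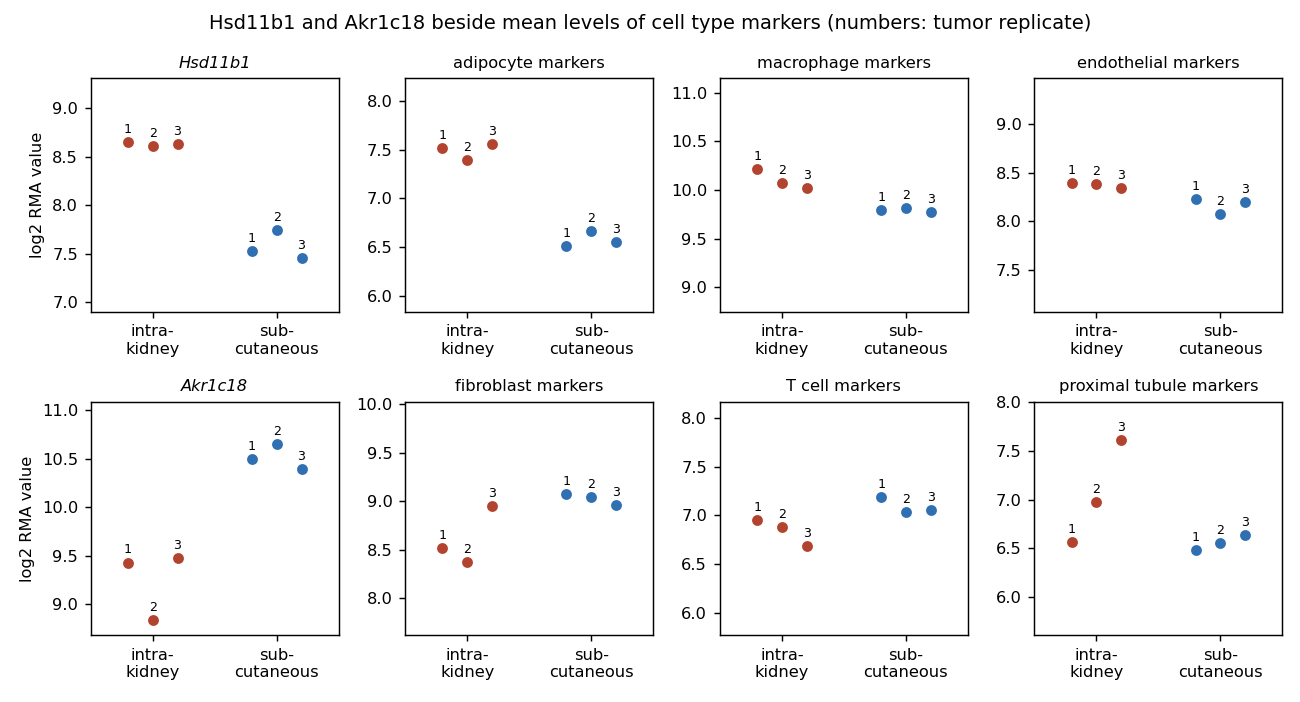
Log2 RMA values of Hsd11b1 and Akr1c18, and mean values of 6 cell type marker lists, in intrakidney (red) and subcutaneous (blue) tumors, with the replicate number beside each point; every panel spans the same number of log2 units. Adipocyte means are 7.40 to 7.56 against 6.51 to 6.67, and proximal tubule means climb to 7.61 in intrakidney tumor 3.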

How the data were processed

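Total RNA of 3 intrakidney and 3 subcutaneous tumors was measured on 1-colour arrays. The deposited log2 values were made by the authors with RMA and affy, per the submitters' processing notes. Software versions, RMA settings and the genome build are not given in the sources used here. That values are log2 was judged by their range. Array medians lay between 7.08 and 7.11, and precision is limited by having only 6 arrays. Of 35512 clusters, 21789 were paired with exactly 1 gene by the platform annotation, and the cluster with the highest mean stood for each of 19938 genes. Groups were compared across all genes with limma 3.58.1 in R 4.3.3 (two-sided, Benjamini-Hochberg adjustment, threshold 0.05), tested on simulated data beforehand. No dim genes were filtered. Lists (18, described by counts and medians, without a set test) and members were chosen with earlier results of these data known. Named were all members, every list gene past the threshold, up to 3 further genes per list by p (cell type markers are given mainly as counts), and the 5 genes most alike to each called member; exceptions are marked. Members of lists without a cluster of their own were not analysed here.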

Additional observations from a re-analysis of the deposited data

How the results depend on the processing

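Each member was refitted under 17 other settings (16 for Nr3c2, which the filter on dim genes removes). All members other than Fkbp5 kept their sign in all of them. Fkbp5 turned negative with array weights (-0.047), without intrakidney tumor 1 (-0.038) and without subcutaneous tumor 3 (-0.022), and leaving out arrays gave -0.038 to 0.036. The call of Hsd11b1 was lost in 6 settings and that of Akr1c18 in 9. Members called higher numbered 0, and members called lower 0, when all rows of the platform were tested, with the replicate number as a block, without intrakidney tumors 2 and 3, with the proximal tubule covariate and at an adjusted p of 0.01; array weights gave 2 lower. Leaving out single arrays gave 0 to 1 members called higher and 0 to 1 called lower. It gave 1 to 2 members wholly above and 4 to 5 wholly below the subcutaneous arrays. Groups separate more easily with fewer arrays, and the share of all genes was not counted there. These counts can therefore not be set against those of all 6 arrays. Over all genes, 26 higher and 20 lower calls became 63 and 38 without dim genes, 94 and 44 with a robust prior and intensity trend, 373 and 251 with array weights, 17 and 13 without intrakidney tumors 2 and 3, 3 and 3 with the tubule covariate, 2 and 3 at an adjusted p of 0.01, and 0 and 0 with every row or the replicate block; an offset of 16 gave 45 higher. Leaving out single arrays gave 1 to 19 higher and 1 to 17 lower. With the block, Hsd11b1 had an adjusted p of 0.0660 and Akr1c18 of 0.166 (limma). Deviations of same-numbered tumors from their group means correlated at 0.37, -0.16 and 0.10 across genes. Intrakidney tumors 1 and 3 correlated best with the subcutaneous tumor of their own number, and intrakidney tumor 2 did not. With 3 tumors per group this cannot decide whether same-numbered tumors shared more than a number.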
